A study of Danio rerio with 6 samples.

Results

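The genes described here are the machinery that carries newly made proteins out of the cell, in zebrafish cells that the labels divide into 3 reporter populations. Members were all entries of the deposited expression table whose names begin with one of a fixed set of stems. The stems cover vesicle coats, cargo receptors, the protein channel of the endoplasmic reticulum (ER), its folding enzymes and transcription factors of secretory capacity. They were chosen with earlier results of these data known, and found 74 of 29144 entries. All 6 libraries carry the Tg(fli1:EGFP) genotype, a reporter line that places green fluorescent protein under fli1a control and marks vascular cells, part of the blood lineage and pharyngeal arch mesenchyme, from which cartilage forms. The populations are Fli1-, Low-Fli1+ and High-Fli1+, with 2 RNA-seq libraries each, made from poly-A RNA. The series' design text speaks of duplicate runs of each sample. The labels give no stage and no sorting method, and nothing in them shows that the libraries of a population came from separate animals or sorts, so p-values measure the spread between these libraries, which may be technical. Each population is a mixture of cells, in which fewer cells of a type and less RNA per cell cannot be told apart.

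Proteins for export enter the ER through the Sec61 channel, guided by the signal recognition particle, and are trimmed by signal peptidase and folded with the help of disulfide isomerases. COPII-coated vesicles carry them from the ER to the Golgi, and COPI-coated vesicles return receptors and escaped ER residents. Collagen is a bulky cargo of this route, and zebrafish mutants show how much cartilage depends on it: crusher affects sec23a, bulldog sec24d and feelgood creb3l2, and each has skeletal defects of the head. Mutants of the COPI genes copa, copb1 and copb2 in zebrafish have a defective notochord. The comparisons below ask how the levels of these genes stood in populations that differed in their content of matrix transcripts.

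Values are FPKM, fragment numbers scaled to transcript length and library size, so they are per length and can be set side by side between genes. The reporter's gene fli1a followed the labels, with 1.04 and 5.55 FPKM for Fli1-, 66.8 and 52.0 for Low-Fli1+, then 241 and 192 for High-Fli1+ libraries. The number of sequenced fragments cannot be read from FPKM, and no counting error can be given. Low-Fli1+ libraries listed 14082 and 12575 genes at 0, against 8451 to 11457 in the other 4, and held 8 and 7 members at 0, against 2 to 4. Across tested genes, which are not independent, Pearson's r was 0.737 between the Low-Fli1+ libraries, 0.927 between the Fli1- and 0.892 between the High-Fli1+ libraries. The RNA of the signal recognition particle, listed as Metazoa_SRP, held 27.4% of the FPKM sum of High-Fli1+ replicate 2 and 1.76% to 13.2% of the others.

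Marker levels of many cell types differed between the populations, not all in the same direction, and their part in the results below was not tested. Summed FPKM of 23 cartilage matrix genes was 272 and 374 for Fli1-, 2270.4 and 2494 for Low-Fli1+, then 18944 and 16036 for High-Fli1+ libraries, with no overlap between populations. The sum of 20 connective tissue matrix genes was 463 and 889, then 3665 and 5175, then 4709 and 4038, so both reporter-positive populations were high and overlapped. The 10 endothelial genes summed to 12.0 and 9.36, then 15.9 and 17.8, then 136 and 150.4 FPKM, with kdr, pecam1 and clec14a at 0 in both Fli1- libraries. Neuronal genes (8) went from 1748 and 1505 through 974 and 636 to 99.0 and 37.7, and erythroid genes (8) from 41195 and 32029 through 3219 and 5082 to 74.9 and 69.7. Markers of cells that secrete other products had their highest sums in the Fli1- libraries. Exocrine pancreas genes (13) summed to 114 and 40.4 FPKM there and to at most 10.1 elsewhere. Liver genes (10) gave 294 and 448 against at most 53.5, and islet genes (6) 233 and 309 against at most 48.2. In the liver list 1 gene went the other way, with a log2 fold change of 1.85 in High-Fli1+ against Fli1-. Neutrophil genes (3) summed to 4.09 and 6.61 FPKM for Fli1-, 469.9 and 796 for Low-Fli1+, then 98.1 and 129.9 for High-Fli1+, and macrophage genes (4) to 7.56 and 6.56, 34.8 and 62.5, and 2.28 and 2.13. Notochord genes (4) summed to 7.56 and 7.29, 31.2 and 72.9, and 26.8 and 42.8 FPKM, and the 3 hatching gland genes to 0.994 in 1 library and 0 in the other 5.

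Secretory pathway genes stood higher in High-Fli1+ than Fli1- cells more often than genes at large. Of 72 members with a mean of at least 0.5 FPKM, 13 were called higher and 1 lower (limma on log2(FPKM + 1), Benjamini-Hochberg adjusted p under 0.05 over 19237 genes). The share of higher calls was 18.1% of members beside 5.79% of all tested genes, and that of lower calls 1.39% beside 11.5%. Calls in either direction came to 19.4% of members and 17.2% of all genes, so the shares were close while the split by direction was not. The median log2 fold change was 0.58 over the tested members and -0.35 over all genes, and 59 of the 72 lay above that overall median. At an unadjusted p under 0.05, 25 members were higher and 6 lower, beside 9.88% and 22.1% of all genes, and 52 had a log2 fold change above 0 (72.2%, beside 36.5%). In 44 members (61.1%) both High-Fli1+ libraries lay above both Fli1- libraries, as in 21.6% of all genes, and in 11 members (15.3%) both lay below, as in 44.2% of all genes. Another scaling moved the median of all genes to 0.01 (quantile normalization) or -0.10 (median ratio), and that of members to 0.74 or 0.87, with 17 and 18 members called higher, beside 8.66% and 7.35% of all genes. With 1 Fli1- or High-Fli1+ library left out, the lone library of that population is assumed to vary like the other populations, and higher calls became fewer over all genes too. Of the 13 calls, only that of tmed3 was kept in any of these fits, without Fli1- replicate 1. Every log2 fold change of the 13 stayed at 0.89 or above. Outside the 13, creb3l1 passed without Fli1- replicate 2. Kept calls leave out such new ones, while the shares over all genes count every call of a fit. The higher calls over all genes were then 1.19% and 1.58% without Fli1- replicate 1 and 2, and 0.941% and 0.395% without High-Fli1+ replicate 1 and 2. Members tmed1a and CREB3L3 (1 of many) were below the filter. KDELR3 (1 of many), tmed6, creb3l3a and sec22c passed it through 1 population alone. They are among the 72 counted, and their place in these counts is not independent of the filter.

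**Figure D1:**
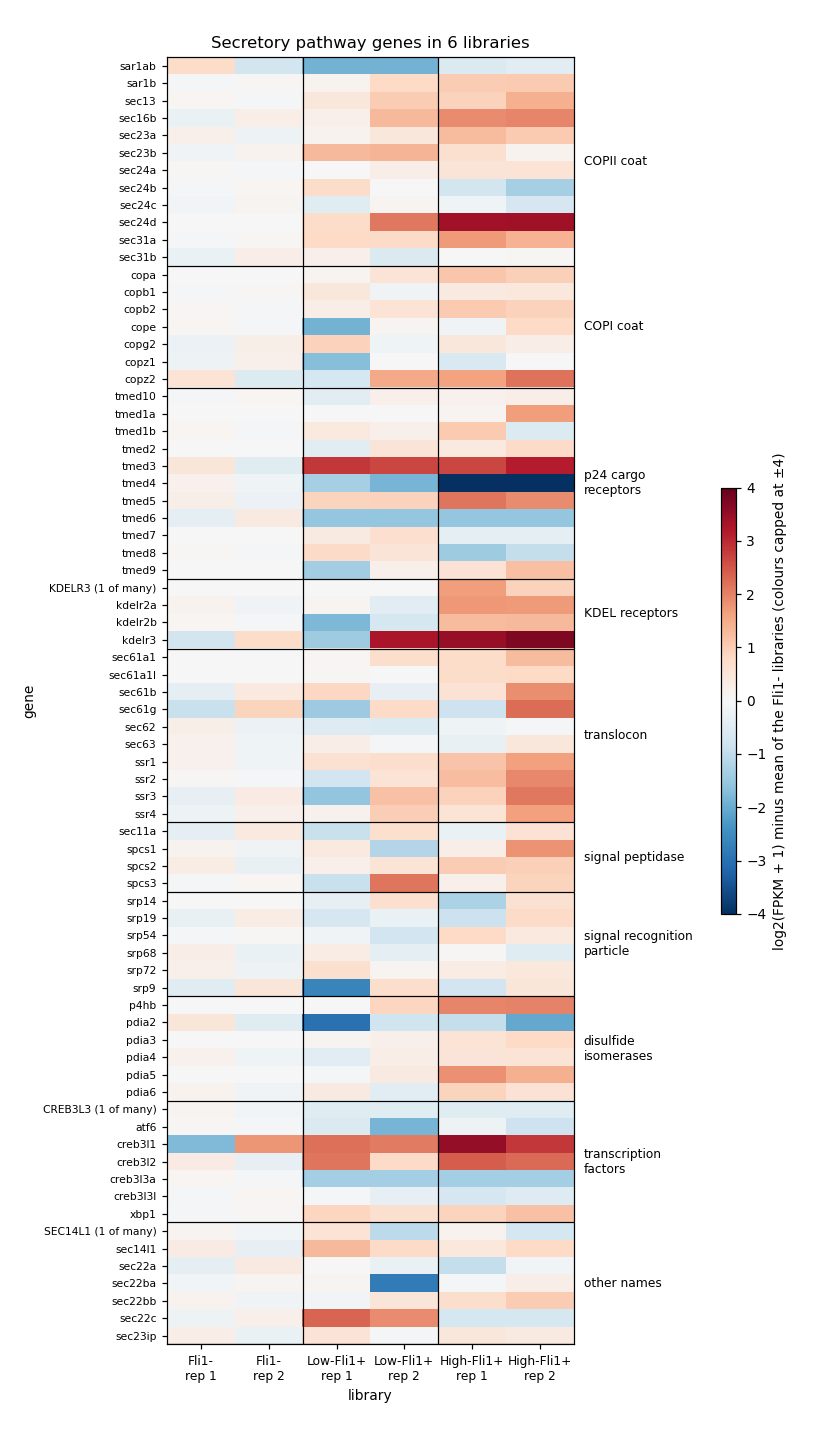
Heat map of log2(FPKM + 1) of all 74 members in the 6 libraries, each minus the mean of the 2 Fli1- libraries, ordered by role; red is above and blue below, with colours capped at 4 in either direction. High-Fli1+ columns are red for sec24d, tmed3, kdelr3, p4hb, creb3l1 and creb3l2, and tmed4 is the darkest blue.

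**Figure D2:**
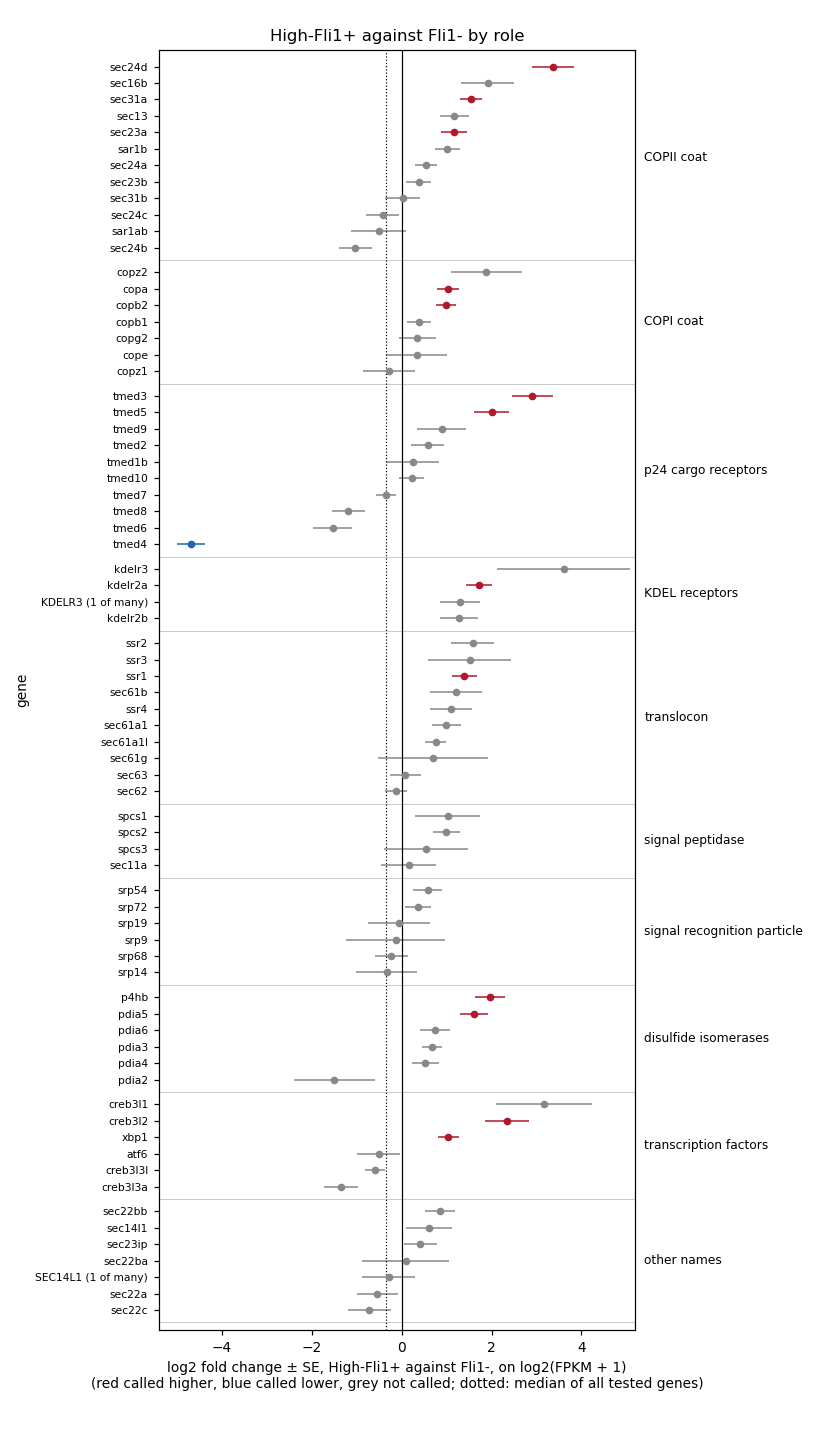
Log2 fold change with standard error of the 72 tested members in High-Fli1+ against Fli1- (2 libraries each), grouped by role. Red points are the 13 members called higher, the blue point is tmed4, grey points were not called, and the dotted line is the median of all tested genes at -0.35.

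In 12 tested members (16.7%) both Low-Fli1+ libraries lay above both Fli1- libraries and below both High-Fli1+ libraries, an order seen in 4.37% of all tested genes. The cartilage sum, the endothelial sum and fli1a had that order as well, so it singles out none of them. They were sar1b, sec24d and sec31a of the COPII coat, copa and copb2 of the COPI coat, sec61a1 and ssr1 of the ER channel, the cargo receptor tmed5, the isomerase pdia3 and the factors creb3l1, creb3l2 and xbp1. The reverse order was shown by tmed4 alone, 1.39% of members beside 7.74% of all genes. The count of 12 became 25 without Low-Fli1+ replicate 1, beside 7.48% of all genes.

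Summed over roles, the members spanned a far narrower range than the matrix they help to export. The cartilage collagen gene col2a1a stood at 55.2 and 73.5 FPKM for Fli1-, 674 and 600.2 for Low-Fli1+, then 5432 and 4666 for High-Fli1+ libraries, and the collagen chaperone gene serpinh1b at 58.6 and 69.9, 463 and 539, and 1561 and 840.4. COPII genes summed to 208 and 216 FPKM for Fli1-, 292 and 344 for Low-Fli1+, then 426 and 405 for High-Fli1+ libraries. COPI genes gave 304 and 331, then 333 and 373, then 464 and 501 FPKM. The transcription factors gave 283 and 312, then 467 and 350.4, then 502 and 520.1 FPKM. The sums of these 3 roles were thus in rising order from Fli1- through Low-Fli1+ to High-Fli1+ with no overlap. That order was also seen for fli1a and for the cartilage and endothelial sums. Taken singly, 3 of 12 COPII genes, 2 of 7 COPI genes and 3 of 6 tested transcription factor genes had it.

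KDEL receptors, disulfide isomerases and translocon genes had both High-Fli1+ sums above the other 4 libraries. The receptors summed to 39.5 and 36.2 FPKM for Fli1-, 25.1 and 48.7 for Low-Fli1+, then 139 and 143 for High-Fli1+, and the isomerases to 428 and 386, 419 and 485, and 861 and 866. The translocon genes summed to 686 and 777, 725 and 1059, and 1125 and 2078 FPKM. In all 3 roles the Low-Fli1+ libraries overlapped Fli1-. The connective tissue sum of Low-Fli1+ was at the level of High-Fli1+, and its cartilage and endothelial sums were well below that level. The part of any of these cells in the 3 roles was not tested. The p24 receptors (337 and 318, 263 and 346, 286 and 329) and the signal recognition particle proteins (156 and 160.4, 148 and 169, 158 and 193) did not separate the populations in order. The mean sum in High-Fli1+ over that in Fli1- was 3.72 for KDEL receptors, 2.19 for the translocon, 2.12 for disulfide isomerases, 1.96 for COPII, 1.72 for transcription factors, 1.63 for signal peptidase, 1.52 for COPI, 1.11 for the particle proteins and 0.938 for p24 receptors, beside 54.2 for cartilage matrix and 6.47 for connective tissue matrix. These sums carry no test and weigh abundant genes most. Signal peptidase genes summed to 74.0 and 80.4 FPKM for Fli1-, 58.8 and 181 for Low-Fli1+, then 99.7 and 152 for High-Fli1+. Low-Fli1+ replicate 2 was the highest library for that role. The p24 sum includes tmed4, at 109 and 86.1 FPKM for Fli1- and 2.45 and 3.21 for High-Fli1+.

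**Figure D3:**
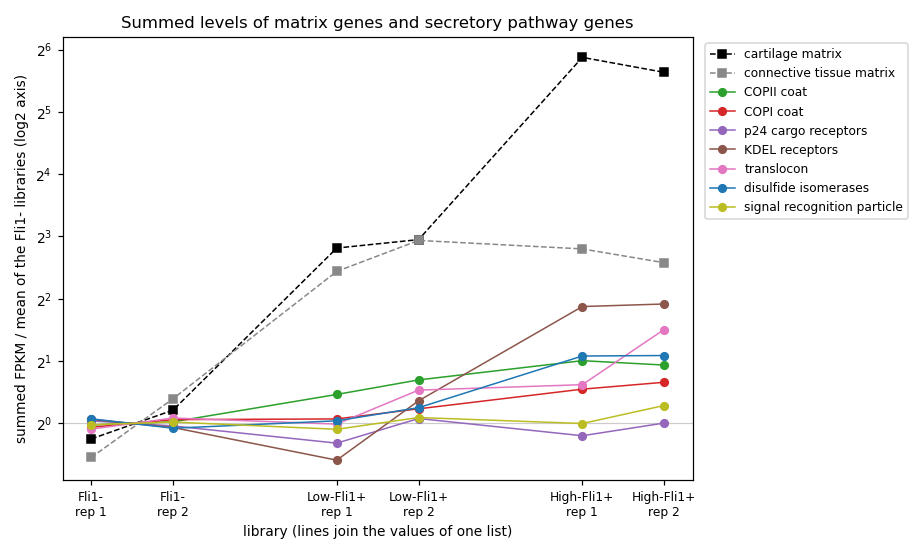
Summed FPKM of each list in each library, divided by the mean of the Fli1- libraries, on a log2 axis; squares with dashed lines are the matrix lists and circles the roles of the secretory pathway. In High-Fli1+ the cartilage matrix averages 54.2 times the Fli1- level, KDEL receptors are the highest of the roles at 3.72 times, and p24 receptors and the signal recognition particle lie near 1.

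In the COPII coat the 3 calls were of single paralogs. The coat is built on the GTPase Sar1 from an inner layer of Sec23 and Sec24, which picks the cargo, and an outer layer of Sec13 and Sec31, while Sec16 marks the exit sites. Of 12 members 3 were called higher in High-Fli1+ than in Fli1- and the other 9 were not called (median log2 fold change 0.78). By limma 0 were called lower in that comparison, and sec24b was lower at an unadjusted p under 0.05. Of all tested genes, 5.79% were called higher there and 11.5% lower, and 22.1% were lower at that unadjusted threshold.

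sec24d, the cargo adaptor lost in bulldog, stood at 6.54 and 6.57 FPKM for Fli1-, 11.7 and 31.7 for Low-Fli1+, then 76.02 and 77.7 for High-Fli1+ libraries. All 3 populations were apart, and the Low-Fli1+ pair was the most spread. The log2 fold change in High-Fli1+ against Fli1- was 3.37 ± 0.47 (SE, adjusted p = 0.00902), or 10.3-fold on the FPKM + 1 scale. It was 1.43 (adjusted p = 0.157) in Low-Fli1+ against Fli1- and 1.93 (adjusted p = 0.0744) in High-Fli1+ against Low-Fli1+, so neither single step passed.

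The other Sec24 genes had no call. sec24a stood at 22.8 and 21.1, 21.7 and 26.5, and 32.1 and 32.6 FPKM (log2 fold change 0.54, adjusted p = 0.202 for High-Fli1+ against Fli1-). sec24b stood at 26.3 and 29.8, 47.6 and 28.3, and 16.3 and 10.7 FPKM, lowest in both High-Fli1+ libraries (-1.03 ± 0.36, adjusted p = 0.114). sec24c stood at 14.5 and 16.9, 11.01 and 16.9, and 13.7 and 9.53 FPKM (-0.42, adjusted p = 0.498). The ratio of sec24d to sec24b FPKM within a library was 0.249 and 0.221 for Fli1-, 0.246 and 1.12 for Low-Fli1+, then 4.65 and 7.29 for High-Fli1+. sec24d was thus the least abundant Sec24 gene in both Fli1- libraries and the most abundant in both High-Fli1+ libraries. The difference between paralogs in their response was not tested.

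Sec23 and Sec31 also had paralogs with unlike patterns, a difference that was not tested. sec23a, the gene of crusher, stood at 23.6 and 17.4 FPKM for Fli1-, 22.3 and 28.4 for Low-Fli1+, then 50.6 and 43.1 for High-Fli1+ libraries (log2 fold change 1.17 ± 0.28, adjusted p = 0.0421 against Fli1-). sec23b was highest in both Low-Fli1+ libraries, at 56.4 and 58.0 FPKM against 20.1 and 24.4 for Fli1- and 34.7 and 24.4 for High-Fli1+. No comparison of sec23b passed (1.33 ± 0.27, adjusted p = 0.0644 for Low-Fli1+ against Fli1-). The outer-layer gene sec31a stood at 17.9 and 19.04, then 33.1 and 32.0, then 61.8 and 50.5 FPKM, apart in all 3 populations. Its log2 fold change in High-Fli1+ against Fli1- was 1.55 ± 0.24 (adjusted p = 0.0117). Its paralog sec31b overlapped throughout, at 12.9 and 18.8, 18.1 and 10.1, and 15.7 and 16.1 FPKM (0.03, adjusted p = 0.980). The calls of sec24d, sec23a and sec31a were lost whichever Fli1- or High-Fli1+ library was left out, with adjusted p of up to 0.124, 0.172 and 0.0783.

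The remaining COPII genes had no call. sar1b stood at 40.8 and 44.1, 47.0 and 74.8, and 86.2 and 87.7 FPKM (log2 fold change 1.02 ± 0.28, adjusted p = 0.0597). sec13 stood at 17.1 and 15.4, 22.4 and 33.7, and 31.5 and 45.5 FPKM (1.18 ± 0.33, adjusted p = 0.0604). Both genes had all 4 reporter-positive libraries above both Fli1- libraries. The exit-site gene sec16b was scarce, at 0.494 and 1.13, 1.05 and 3.34, and 5.55 and 5.89 FPKM, with both High-Fli1+ libraries above the other 4. sar1ab was listed at 0 in both Low-Fli1+ libraries and stood at 5.16 and 1.24 for Fli1- and 1.49 and 1.74 for High-Fli1+ (-0.51, adjusted p = 0.641, and 0.23 without Fli1- replicate 1).

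**Figure D4:**
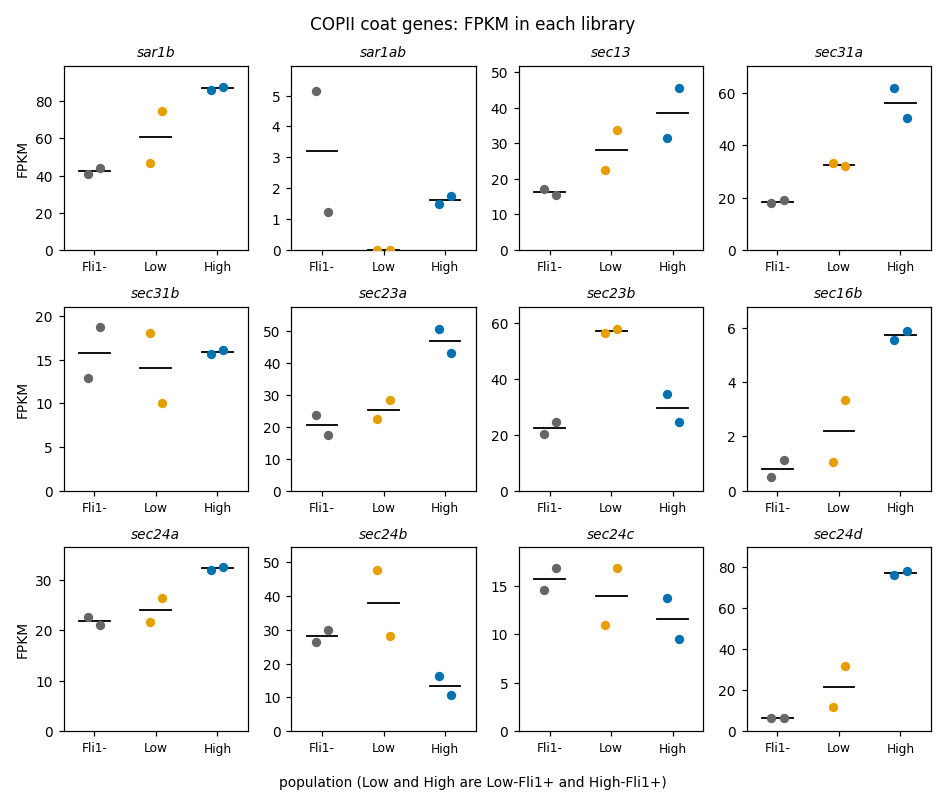
FPKM of the 12 COPII genes in each library (points) with the mean of the 2 libraries of each population (black lines), each y axis starting at 0. sec24d and sec31a step up from Fli1- through Low-Fli1+ to High-Fli1+, sec23b is highest in Low-Fli1+ at 56.4 and 58.0, and sec24b is lowest in High-Fli1+ at 16.3 and 10.7.

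Of 7 COPI genes, copa and copb2 were called higher in High-Fli1+ than Fli1- cells (median log2 fold change of the 7 genes 0.39). The share called higher was 5.79% over all tested genes. copa, the alpha subunit, stood at 47.3 and 48.4 FPKM for Fli1-, 51.8 and 70.0 for Low-Fli1+, then 104 and 94.2 for High-Fli1+ libraries (log2 fold change 1.03 ± 0.24, adjusted p = 0.0371). copb2, the beta-prime subunit, stood at 60.1 and 55.2, 69.6 and 84.6, and 121 and 109 FPKM (0.98 ± 0.22, adjusted p = 0.0339). Both were apart in all 3 populations, and both calls were lost whichever Fli1- or High-Fli1+ library was left out (adjusted p up to 0.173 and 0.138). copb1, whose product sits in the same coat, stood at 44.4 and 46.9, 63.3 and 41.2, and 58.3 and 62.0 FPKM and did not pass (0.39 ± 0.27, adjusted p = 0.393). copz2 stood at 13.5 and 5.81, 5.11 and 27.2, and 29.3 and 43.5 FPKM (1.89 ± 0.78, adjusted p = 0.163). The other zeta gene, copz1, overlapped at 55.7 and 73.4, 18.98 and 64.3, and 41.8 and 65.2 FPKM. copg2 (51.1 and 72.3, 117 and 53.4, 82.7 and 73.5) and cope (31.7 and 28.9, 7.50 and 32.5, 27.6 and 53.6) were not called. Low-Fli1+ replicate 1 was the highest library for copg2 and the lowest for cope, copz1 and copz2.

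The p24 family, small membrane proteins that sort cargo between the ER and the Golgi, held calls in both directions. Of 10 tested members 2 were called higher and 1 lower in High-Fli1+ than Fli1- cells (median log2 fold change 0.24). Over all tested genes 5.79% were called higher and 11.5% lower. tmed4 had the largest log2 fold change of the tested members: it stood at 109 and 86.1 FPKM for Fli1-, 38.3 and 25.96 for Low-Fli1+, then 2.45 and 3.21 for High-Fli1+ libraries. The 3 populations were far apart. The log2 fold change was -4.68 ± 0.32 for High-Fli1+ against Fli1- (adjusted p = 0.00235), or 25.7-fold lower on the FPKM + 1 scale. It was -3.09 ± 0.32 for High-Fli1+ against Low-Fli1+ (adjusted p = 0.0149). The first call held whichever of the 6 libraries was left out (adjusted p 0.0102 to 0.0495). The second held only without Low-Fli1+ replicate 2 (0.0328) and reached 0.139 otherwise. The summed neuronal, erythroid, exocrine pancreas, islet and liver markers were also lowest in High-Fli1+ and intermediate in Low-Fli1+, and their part in this was not tested.

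tmed3 had the opposite placement, at 2.71 and 0.928 FPKM for Fli1-, 18.1 and 16.0 for Low-Fli1+, then 16.2 and 22.4 for High-Fli1+. Both reporter-positive populations were high and overlapped, as the connective tissue and notochord sums did. The neutrophil sum was above Fli1- in both as well, and the part of any of these cells was not tested. Both comparisons with Fli1- cells called tmed3 higher. The log2 fold change was 2.91 ± 0.46 for High-Fli1+ (adjusted p = 0.0123) and 2.754 ± 0.46 for Low-Fli1+ (adjusted p = 0.0411). tmed5 stood at 4.02 and 2.63, 6.88 and 7.03, and 17.7 and 14.7 FPKM, apart in all 3 populations (2.00 ± 0.40, adjusted p = 0.0235 for High-Fli1+ against Fli1-). The tmed3 call in High-Fli1+ was kept without Fli1- replicate 1 (0.0492) and lost without Fli1- replicate 2 or either High-Fli1+ library, while that in Low-Fli1+ was lost whichever library was left out (0.0631 to 0.111). The tmed5 call was lost whichever Fli1- or High-Fli1+ library was left out (up to 0.125).

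The other p24 genes had no call. tmed10 stood between 58.0 and 95.3 FPKM and tmed2 between 29.6 and 69.2 over the 6 libraries, with log2 fold changes of 0.23 (adjusted p = 0.646) and 0.58 (adjusted p = 0.340). tmed7 stood at 59.23 and 57.2, 74.8 and 92.7, and 45.5 and 45.2 FPKM, and tmed8 at 10.3 and 9.59, 17.6 and 14.6, and 3.10 and 4.67. Both were highest in both Low-Fli1+ libraries and lowest in both High-Fli1+ libraries. The lowest adjusted p of the pair was that of tmed8 for High-Fli1+ against Low-Fli1+ (-1.82 ± 0.38, adjusted p = 0.0522). tmed9 stood at 28.0 and 29.1, 10.3 and 33.0, and 43.0 and 67.6 FPKM, and tmed1b between 4.34 and 15.3. tmed6 was at 1.27 and 2.69 FPKM for Fli1- and listed at 0 in the other 4 libraries, and tmed1a was at 0.0686 and 2.16 for High-Fli1+ and at 0 elsewhere.

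KDEL receptors, which recognise the retrieval signal of ER residents in the Golgi and send them back in COPI vesicles, were highest in High-Fli1+. In all 4 genes both High-Fli1+ libraries lay above the other 4 libraries, an arrangement held by 30 of 72 tested members (41.7%) and by 10.6% of all tested genes, while the reverse was held by 6 members (8.33%) and 21.7% of all genes. kdelr2a stood at 22.0 and 17.9 FPKM for Fli1-, 21.3 and 14.1 for Low-Fli1+, then 68.7 and 67.0 for High-Fli1+. The High-Fli1+ level was called higher in both comparisons, with log2 fold changes of 1.72 ± 0.29 over Fli1- (adjusted p = 0.0152) and 1.91 ± 0.29 over Low-Fli1+ (adjusted p = 0.0290). kdelr2b stood at 16.9 and 14.7, 3.83 and 9.37, and 39.0 and 40.1 FPKM, lowest in both Low-Fli1+ libraries. It was called against Low-Fli1+ (2.52 ± 0.42, adjusted p = 0.0348) and not against Fli1- (1.27 ± 0.42, adjusted p = 0.0963). kdelr3 stood at 0.612 and 3.498, 0 and 25.1, and 28.9 and 34.8 FPKM, and its Low-Fli1+ libraries were far apart (3.60 ± 1.49, adjusted p = 0.162). KDELR3 (1 of many) was listed at 0 outside High-Fli1+, where it was at 2.19 and 0.891. It passed the filter through High-Fli1+ alone, so its place among the 4 genes and the 30 members gives no support.

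The kdelr2a call against Fli1- was lost whichever Fli1- or High-Fli1+ library was left out (up to 0.114). Both calls against Low-Fli1+ were kept without Low-Fli1+ replicate 2 and lost when any other library was left out (0.0516 to 0.183). Reads of near-identical genes, such as kdelr2a and kdelr2b or kdelr3 and its second entry, may have been split between them in counting, so the level of each is uncertain.

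At the entrance of the pathway, 1 gene of the ER channel was called and none of the signal recognition particle. Of 10 translocon genes ssr1 was called higher in High-Fli1+ than in Fli1-, and 9 had a log2 fold change above 0 (median 1.05). Among all tested genes 5.79% were called higher, and 36.5% had a log2 fold change above 0. ssr1, a subunit of the translocon-associated protein complex, stood at 163 and 127 FPKM for Fli1-, 219 and 234 for Low-Fli1+, then 321 and 449 for High-Fli1+ (1.39 ± 0.28, adjusted p = 0.0237, and up to 0.157 with 1 Fli1- or High-Fli1+ library left out). Its partner ssr2 stood at 37.4 and 34.6, 20.9 and 53.0, and 86.3 and 139 FPKM (1.58 ± 0.48, adjusted p = 0.0755). The pore gene sec61a1 was the most abundant channel gene in both Fli1- libraries, at 205 and 208 FPKM, and stood at 218 and 338 for Low-Fli1+, then 340.4 and 499.8 for High-Fli1+ (0.996 ± 0.33, adjusted p = 0.0949). The related entry sec61a1l, with which it may share reads, stood at 21.3 and 21.3, 22.1 and 20.9, and 35.8 and 37.8 FPKM (0.76 ± 0.24, adjusted p = 0.0798). These 4 genes had both High-Fli1+ libraries above the other 4. sec62 and sec63, known for the entry of proteins after their synthesis, had log2 fold changes of -0.13 and 0.08 (adjusted p = 0.784 and 0.914).

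In sec61g and srp9 the libraries of a population lay far apart and the populations overlapped. sec61g, the gamma subunit of the pore, stood at 39.1 and 137 FPKM for Fli1-, 26.4 and 127 for Low-Fli1+, then 41.2 and 347 for High-Fli1+ (log2 fold change 0.70 ± 1.23, adjusted p = 0.759). Replicate 2 was the higher library in every population, and the sign turned without Fli1- replicate 1 (-0.19) or High-Fli1+ replicate 2 (-0.82). srp9 stood at 23.1 and 46.5, 4.41 and 53.6, and 19.04 and 46.7 FPKM. ssr3 stood at 42.6 and 66.4, 17.2 and 122, and 101 and 235, with both High-Fli1+ libraries above both Fli1- libraries. In 17 tested members (23.6%) replicate 2 exceeded replicate 1 in all 3 populations, as in 10.7% of all tested genes. They included 3 of the 6 particle proteins (srp9, srp14, srp19) and sec61g, ssr3, ssr4, sec11a and spcs3, but also sec24d, sar1b and sec61a1. Metazoa_SRP, the RNA of the particle, was also higher in each replicate 2 library, and what the replicates share was not tested. sec61b, the beta subunit, stood at 39.2 and 67.0, 91.5 and 40.7, and 77.0 and 187 FPKM (1.21 ± 0.58, adjusted p = 0.219).

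Signal peptidase and the particle proteins gave 0 calls in the 3 comparisons by limma. Of all tested genes, 17.2% were called in either direction in High-Fli1+ against Fli1-. The share was 5.37% in High-Fli1+ against Low-Fli1+ and 3.23% in Low-Fli1+ against Fli1-. At an unadjusted p under 0.05, 1 of these 10 genes passed in High-Fli1+ against Fli1- (spcs2, higher). In High-Fli1+ against Low-Fli1+ 1 passed (srp54, higher), and in Low-Fli1+ against Fli1- 0 did. The shares of all genes higher at that threshold were 9.88%, 8.15% and 8.71% in turn, and those lower 22.1%, 15.8% and 12.0%. spcs2 stood at 25.4 and 16.9, 24.1 and 30.8, and 43.3 and 41.3 FPKM (0.99 ± 0.30, adjusted p = 0.0744). srp54, the GTPase that binds the signal sequence, stood at 25.9 and 28.2, 24.6 and 15.4, and 47.5 and 35.4 FPKM (1.04 ± 0.32, adjusted p = 0.121 against Low-Fli1+). Both genes were highest in both High-Fli1+ libraries. The large particle proteins overlapped, srp68 between 25.7 and 45.0 FPKM and srp72 between 32.2 and 58.0. The median log2 fold change in High-Fli1+ against Fli1- was -0.09 over the 6 particle proteins and 0.77 over the 4 peptidase genes.

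Among disulfide isomerases p4hb, which also serves as the beta subunit of the prolyl 4-hydroxylase that modifies collagen, had the largest log2 fold change. It stood at 89.3 and 86.9 FPKM for Fli1-, 86.2 and 160.2 for Low-Fli1+, then 341 and 353 for High-Fli1+ libraries. High-Fli1+ was above both other populations, which overlapped, with log2 fold changes of 1.97 ± 0.33 against Fli1- (adjusted p = 0.0147) and 1.55 ± 0.33 against Low-Fli1+ (adjusted p = 0.0555). pdia5 stood at 10.9 and 10.7, 10.5 and 14.2, and 40.5 and 30.3 FPKM (1.61 ± 0.31, adjusted p = 0.0223 against Fli1-). These were the 2 calls among 6 genes, where 5.79% of all tested genes were called higher. Both calls were lost whichever Fli1- or High-Fli1+ library was left out. The general isomerases pdia3 (139 and 141 FPKM for Fli1-, 206 and 243 for High-Fli1+), pdia4 (70.2 and 54.0, 87.99 and 90.1) and pdia6 (109 and 87.8, 183 and 148) were highest in both High-Fli1+ libraries without a call. Their log2 fold changes were 0.67, 0.52 and 0.74 (adjusted p = 0.0916, 0.304 and 0.195). pdia2, known in mammals from the pancreas, stood at 10.1 and 4.77, 0 and 3.61, and 3.10 and 0.943 FPKM, highest in both Fli1- libraries. The exocrine pancreas, islet, liver, neuronal and erythroid sums were highest there too, and their part in this was not tested.

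Of 6 tested transcription factor genes 2 were called higher in High-Fli1+ than in Fli1-, creb3l2 and xbp1. Over all tested genes that share was 5.79%. creb3l2, a membrane-bound factor that is cleaved in the Golgi and acts on sec23a in zebrafish, stood at 20.4 and 12.7 FPKM for Fli1-, 75.1 and 28.3 for Low-Fli1+, then 90.4 and 81.8 for High-Fli1+ (log2 fold change 2.34 ± 0.49, adjusted p = 0.0284). xbp1, a factor of the unfolded protein response that expands the ER, stood at 129 and 136, 242 and 207, and 246 and 303 FPKM (1.04 ± 0.24, adjusted p = 0.0346). Neither factor was called in High-Fli1+ against Low-Fli1+, at 0.88 (adjusted p = 0.351) for creb3l2 and 0.29 (adjusted p = 0.502) for xbp1. Both were apart in all 3 populations, and both calls were lost whichever Fli1- or High-Fli1+ library was left out (up to 0.228 and 0.176). creb3l1, known in mammals for its part in collagen secretion by bone, had the same order, at 0.930 and 20.9, 29.1 and 26.7, and 73.1 and 45.6 FPKM, but its Fli1- libraries were far apart (3.18 ± 1.07, adjusted p = 0.1002). Its log2 fold change was 1.42 without Fli1- replicate 1, and 4.93 without Fli1- replicate 2, where it passed (adjusted p = 0.0245).

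The other factors had no call. atf6, a sensor of the unfolded protein response, stood at 34.7 and 32.6, 22.0 and 8.54, and 29.2 and 18.7 FPKM, below both Fli1- libraries in all 4 others (-0.51 ± 0.48, adjusted p = 0.535). creb3l3l, a relative of the mammalian liver and intestine factor CREB3L3, stood at 95.8 and 108, 98.3 and 80.2, and 62.9 and 71.1 FPKM (-0.60 ± 0.23, adjusted p = 0.135). creb3l3a was at 1.70 and 1.41 FPKM and CREB3L3 (1 of many) at 0.510 and 0.320 for Fli1-, and both were listed at 0 in the 4 other libraries. The summed liver markers were also highest in both Fli1- libraries, as were the exocrine pancreas, islet, neuronal and erythroid sums. Their part in these levels was not tested. FPKM gives the RNA level of these factors, while their activity depends on cleavage or splicing, which was not measured.

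**Figure D5:**
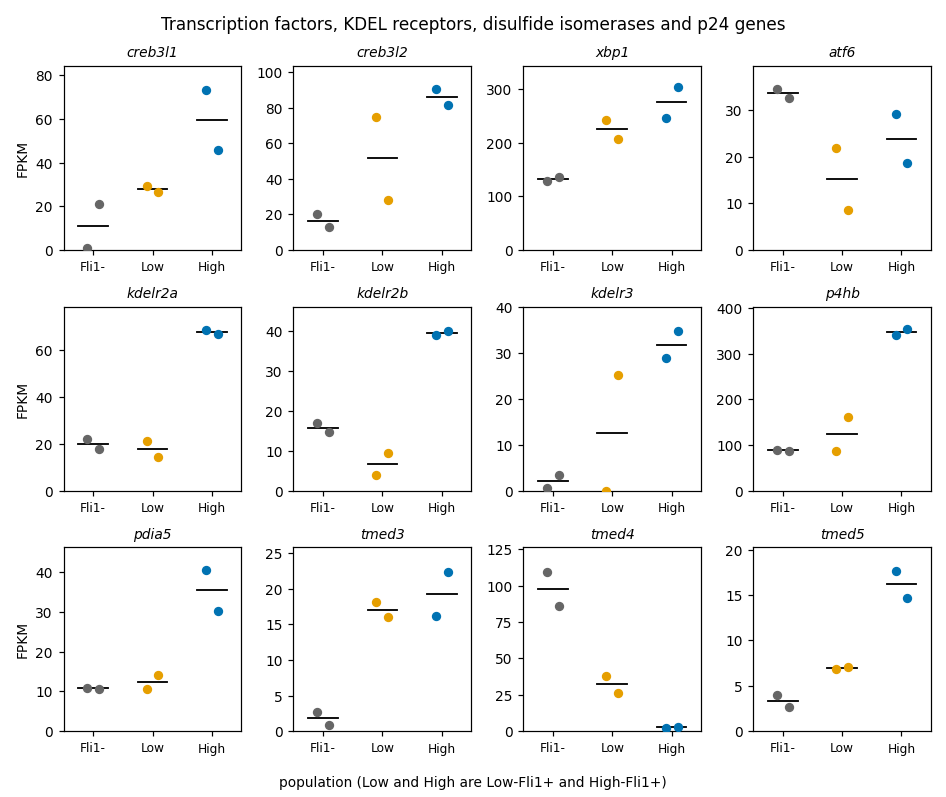
FPKM of 4 transcription factors, 3 KDEL receptors, 2 disulfide isomerases and 3 p24 genes in each library (points) with the mean of the 2 libraries of each population (black lines), each y axis starting at 0. kdelr2a, p4hb and pdia5 are highest in High-Fli1+, and their Low-Fli1+ points overlap those of Fli1-. tmed3 is high in both reporter-positive populations, and tmed4 goes from 109 and 86.1 for Fli1- to 2.45 and 3.21 for High-Fli1+.

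The name rule also caught 7 genes outside these roles. Sec22 proteins are SNAREs, which fuse vesicles with their target membrane. sec22c stood at 7.27 and 5.06 FPKM in Low-Fli1+, against 0.418 and 0.906 for Fli1- and 0 in both High-Fli1+ libraries. It passed the filter through Low-Fli1+ alone, so its high place there is not independent of the filter. It was called lower in High-Fli1+ than in Low-Fli1+ (fitted log2 difference -2.82 ± 0.48, adjusted p = 0.0363, which depends on the offset of 1), a call kept without Low-Fli1+ replicate 2 (0.0339) and lost when any other library was left out (up to 0.150). sec22bb stood at 14.1 and 11.2, 11.7 and 18.0, and 21.1 and 26.5 FPKM (0.86 ± 0.34, adjusted p = 0.149 against Fli1-). sec22a, sec22ba, the Sec23 partner sec23ip and the 2 sec14l1 entries, of a lipid-binding family, had log2 fold changes between -0.54 and 0.61 for High-Fli1+ against Fli1-, with 0 calls by limma and 0 at an unadjusted p under 0.05.

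Low-Fli1+ cells, with connective tissue matrix at the level of High-Fli1+ and lower cartilage and endothelial sums, gave few calls. Against Fli1-, limma called 1 tested member higher (tmed3) and 0 lower, beside 2.14% and 1.1% of all genes, or 1.39% of members and 3.23% of all genes in either direction. At an unadjusted p under 0.05, 7 were higher and 6 lower, beside 8.71% and 12.0%, and 41 had a log2 fold change above 0 (56.9%, beside 40.0%). The median log2 fold change was 0.15 over tested members and -0.21 over all genes. In 20 members (27.8%) both Low-Fli1+ libraries lay above both Fli1- libraries, as in 18.9% of all genes, and in 9 (12.5%) both lay below, as in 30.5%. High-Fli1+ against Low-Fli1+ gave 2 higher calls (kdelr2a, kdelr2b), beside 1.22% of all genes, and 2 lower (tmed4, sec22c), beside 4.15%, or 4 calls in either direction (5.56%, beside 5.37%), with a median of 0.55 over members and -0.13 over all genes. At an unadjusted p under 0.05, 16 were higher and 6 lower, beside 8.15% and 15.8% of all genes. Median-ratio scaling gave 5 higher and 2 lower calls there. In 32 members (44.4%) both High-Fli1+ libraries lay above both Low-Fli1+ libraries, as in 18.3% of all genes, and in 7 (9.72%) both lay below, as in 28.3%. Low-Fli1+ was highest without overlap in 4 members (sec22c, sec23b, tmed7, tmed8; 5.56%, beside 8.6%) and lowest in 4 (kdelr2b, sar1ab, sec62, srp54; 5.56%, beside 8.41%). The 3 comparisons share libraries with each other and are not independent.

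Within the Low-Fli1+ pair, replicate 2 was the higher library for 15 of 20 connective tissue genes and 13 of 23 cartilage genes. It was also the higher one for 38 tested members (52.8%) and for 45.9% of all tested genes. By role the count was 8 of 12 for COPII, 5 of 7 for COPI, 5 of 6 for disulfide isomerases and 0 of 6 for the tested transcription factors. Genes at 0 in both Low-Fli1+ libraries, such as sar1ab and creb3l3a, count as not higher, also in the share of all genes. This describes 1 pair of libraries and carries no test.

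Other genes of the route were listed by function rather than by name stem. Of 72 ER exit and Golgi transport genes 3 were called higher and 2 lower in High-Fli1+ than in Fli1- (median log2 fold change 0.09). The corresponding shares of all tested genes were 5.79% and 11.5%, so the list's shares of calls were smaller in both directions. The higher ones were the cargo receptor genes surf4l, at 15.1 and 10.5 FPKM for Fli1- and 85.3 and 46.7 for High-Fli1+ (2.24 ± 0.44, adjusted p = 0.0237), and mcfd2 (1.82), and yif1a (1.34), whose product cycles between ER and Golgi. The lower ones were the GTPase genes rab1bb and rab6ba (-3.15). rab1bb stood at 24.3 and 20.6 FPKM for Fli1- and 0.424 and 1.26 for High-Fli1+ (-3.70 ± 0.55, adjusted p = 0.0109). Over the whole list, 10 genes were higher and 7 lower at an unadjusted p under 0.05 by limma, beside 9.88% and 22.1% of all genes. Both High-Fli1+ libraries lay above both Fli1- libraries in 24 genes and below in 19, beside 21.6% and 44.2% of all genes. The median over all genes was -0.35.

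Of 37 tested genes of ER entry, glycosylation and folding 5 were called higher and 0 lower in High-Fli1+ than in Fli1- by limma, beside 5.79% and 11.5% of all genes. At an unadjusted p under 0.05, 9 and 1 passed, beside 9.88% and 22.1%. The median log2 fold change of the list was 0.49. The 5 called genes were the translocon partner tram2 (2.47), the disulfide isomerase txndc5 (2.23), the co-chaperone dnajc3a (1.601), the collagen prolyl isomerase ppib (1.57) and the lectin chaperone calr3b (1.12). txndc5 stood at 25.4 and 18.9 FPKM for Fli1-, 40.5 and 34.9 for Low-Fli1+, then 114 and 99.2 for High-Fli1+ and was also called higher than in Low-Fli1+. ppib stood at 60.9 and 71.6, 61.1 and 108, and 174 and 225 FPKM, above the other 4 libraries in both High-Fli1+ libraries. Of 19 tested genes of the unfolded protein response and ER-associated degradation 0 were called by limma and 0 passed an unadjusted p under 0.05 in that comparison (median -0.18).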

How the data were processed

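RNA-seq of 6 libraries, 2 from each of 3 reporter populations, was analysed. Per the labels' protocols, 100 ng of total RNA was enriched for poly-A RNA and made into double-stranded cDNA. The authors deposited 1 FPKM value per gene and library. The aligner, counter, genome build, annotation and strand setting are not given in the sources used here, so no coordinates are printed. The table holds 29144 entries, of which 18 named as dates were left out.

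The 74 members and all lists were chosen with earlier results of these data known. RefSeq names matched 71 members. Members called in the comparisons are given with full statistics. A set of core pathway genes and most other members are given by their values, range or fold change.

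limma 3.58.1 in R 4.3.3 was fitted to log2(FPKM + 1) of all 6 libraries, without further scaling, for the 19237 genes with a mean of at least 0.5 FPKM. Variances were trended, tests were two-sided with 3 residual and 2.89 prior degrees of freedom, and p-values were adjusted by Benjamini-Hochberg over those genes with a call under 0.05. Fold changes are on the log2(FPKM + 1) scale and understate changes of low genes. FPKM values hold no depth, so no counting error is given. With 2 libraries a population an exact permutation test cannot reach 0.05. Scripts were tested on simulated data. Alternatives comprised 11 settings of offset, filter, scaling, variance model, block, weights and samples, and leaving out each of the 6 libraries.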

Additional observations from a re-analysis of the deposited data

How the results depend on the processing

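The 14 calls in High-Fli1+ against Fli1- became 29 with array weights and 23 when only the populations compared were fitted, and ranged from 1 to 23 with 1 library left out. The other 9 settings gave 10 to 19. Higher calls over all genes moved likewise, from 5.79% to 9.24%, to 8.18%, and to between 0.395% and 8.18% with 1 library left out. The call of tmed4 held in all of these settings. Without 1 of the Fli1- or High-Fli1+ libraries, lower calls outnumbered higher ones among members, unlike in the main fit.

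Higher calls over all genes in Low-Fli1+ against Fli1-, at 2.14%, became 2.02% with an offset of 0.1, 0.93% with array weights and 0% with only the populations compared. They became 1.95% with an offset of 5, 2.71% with quantile normalization and 1.96% with no variance trend. Without genes at 0 in 1 library and at 5 FPKM or more in its pair they were 3.95%. The 1 member call in this comparison became 0 with an offset of 0.1, array weights or only the populations compared. It became 2 with an offset of 5, quantile normalization or no variance trend, and 4 without genes at 0 in 1 library and at 5 FPKM or more in its pair, and ranged from 0 to 3 with 1 library left out.

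The 4 calls in High-Fli1+ against Low-Fli1+ became 0 without a filter or with only the populations compared, 2 with array weights, 7 with a mean of at least 2 FPKM or median-ratio scaling, and 8 without genes at 0 in 1 library of a pair, and ranged from 0 to 11 with 1 library left out. Higher calls over all genes, at 1.22%, became 0.206% without a filter, 0% with only the populations compared, 0.317% with array weights, 2% with median-ratio scaling and 4.43% without Low-Fli1+ replicate 2. With a mean of at least 2 FPKM, higher calls over all genes were 1.75%. Without genes at 0 in 1 library and at 5 FPKM or more in its pair they were 2.83%. The 12 members in rising order ranged from 13 to 25 with 1 library left out. The cause of these moves was not tested.

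The log2 fold change of sar1ab in High-Fli1+ against Fli1- turned to 0.19 with quantile normalization and ranged from -1.24 to 0.23 with 1 library left out. That of sec31b ranged from -0.23 to 0.28 and that of sec61g from -0.82 to 2.22.

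The replicate numbers are shared between populations, and the labels do not say what a number stands for. Deviations of same-numbered libraries correlated over all genes at 0.0962 (Fli1- and Low-Fli1+), 0.0806 (Fli1- and High-Fli1+) and 0.121 (Low-Fli1+ and High-Fli1+), and over members at 0.227, 0.240 and 0.331. With the replicate block, 15 members were called in High-Fli1+ against Fli1-, 0 in Low-Fli1+ against Fli1- and 3 in High-Fli1+ against Low-Fli1+. Of these, 14, 0 and 2 were higher, beside 5.29%, 1.36% and 0.821% of all genes. Of the 14 calls without the block 13 were kept in the first comparison, where sec23a no longer passed (adjusted p = 0.0581). The call of tmed3 in Low-Fli1+ against Fli1- (0.0659) and that of sec22c in High-Fli1+ against Low-Fli1+ (0.0609) did not pass either.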
